A study of Mus musculus with 6 samples.

Results

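The liver is the main site where surplus amino acids are broken down, and the transcripts of 47 enzymes of amino acid breakdown and of the one-carbon pathways were followed here in mouse liver. They were chosen by symbol, from knowledge of the pathways, and all 47 were found among the 22068 symbols of the tables. Polyadenylated RNA was sequenced from livers of 6 week old mice of the C57BL/6 strain, with 3 control libraries and 3 from mice lacking both Mst1 and Mst2 in the liver (dKO). These kinases, listed under the symbols Stk4 and Stk3, belong to the Hippo pathway, which restrains the coactivators YAP and TAZ. The controls were Mst1-/-; Mst2fl/fl; alb-Cre-/- and the dKO mice Mst1-/-; Mst2fl/fl; alb-Cre+/+, so that both groups carried the Mst1 null and no wild-type liver was compared. The albumin promoter that drives Cre is active in hepatocytes, and which cells had recombined was not measured. The labels number the replicates without naming animals, so the p-values measure the spread between these libraries, which may be technical.

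As background, most of these pathways start in the cytosol of the hepatocyte with removal of the amino group or opening of a ring, and the carbon skeleton is then burned or turned into glucose, often in mitochondria. Methionine is turned into S-adenosylmethionine, the methyl donor of the cell, then into homocysteine, which is either methylated back to methionine or passed through transsulfuration to cysteine. Folate-linked enzymes collect the one-carbon units that serine, glycine, histidine and choline breakdown release, and several enzymes of the set, Tat and Sds among them, are known to be induced by glucocorticoids and glucagon.

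Values are read as RPKM, read counts scaled to transcript length and library size, and group values are means ± SD (n = 3 libraries). The sum of all RPKM ran from 364571 to 368246 over the controls and from 324034 to 352678 over the dKO libraries, and the spacing of low values gave estimated depths, in M reads (M for mega), of 17.0 to 24.8. The targeted kinases did not separate the groups, with Stk3 at 5.54 ± 0.414 RPKM in the controls against 4.90 ± 0.571 RPKM in dKO liver (limma adjusted p = 0.424) and Stk4 at 4.95 ± 0.478 RPKM in the controls against 5.51 ± 0.506 RPKM in dKO liver (limma adjusted p = 0.487). Both groups carried the Mst1 null, so only Mst2, listed as Stk3, was meant to differ between them. One value for a whole gene cannot show the loss of single exons, so the genotypes could not be checked this way. The 6 hepatocyte markers Alb, Apoa1, Apob, Trf, Cps1 and Ttr summed to 65259, 51556 and 66862 RPKM in the controls against 58929, 59022 and 49944 RPKM in dKO liver. Of their log2 changes 5 were below 0 and 1, that of Trf, above, and Ttr was called lower. Trf stood at 7555 ± 1025 RPKM in the controls against 12513 ± 1560 RPKM in dKO liver, higher without overlap (limma adjusted p = 0.0612). Alb itself, which encodes albumin, measured 46467, 36157 and 46961 RPKM in the controls against 37822, 37626 and 34054 RPKM in dKO liver (limma adjusted p = 0.527), and the kidney markers Umod, Slc34a1 and Slc12a1 were listed at 0 in every library. The 8 cholangiocyte markers summed to 52.2, 46.96 and 104 RPKM in the controls against 540.2, 384 and 1058 RPKM in dKO liver, and all 7 that were tested were called higher. Their part in the results below was not tested, and in whole liver fewer cells of a type and less RNA per cell cannot be told apart. Of the other markers, 1 of 6 macrophage genes (Vsig4) was called higher, and 0 of 7 stellate, 0 of 5 endothelial and 0 of 3 lymphocyte and neutrophil genes were called in either direction by limma (3, 0 and 1 at an unadjusted p under 0.05). At that unadjusted p, 3 macrophage genes were higher and 1, Marco, was lower. Marco stood at 12.5 ± 7.47 RPKM in the controls against 3.52 ± 1.11 RPKM in dKO liver, without overlap (limma adjusted p = 0.0531). The stellate markers summed to 33.9, 48.0 and 48.3 RPKM in the controls against 63.2, 49.4 and 141 RPKM in dKO liver, without overlap.

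Of the 47 enzymes, 7 fell and 3 rose in dKO liver, and 37 did not pass the test, a limma fit across the 11062 genes that averaged 1 RPKM or more and a Benjamini-Hochberg adjusted p under 0.05. Those that fell were Tat, Hpd and Hgd of tyrosine breakdown, Hal of histidine breakdown, Bckdhb of branched-chain breakdown, the aspartate aminotransferase Got1, and Cbs of transsulfuration. Those that rose were the alanine aminotransferase Gpt2 and the homocysteine enzymes Ahcy and Bhmt. Over all tested genes 2.17% were called lower and 17.8% higher, against 14.9% and 6.38% of the 47. Without control replicate 3 or dKO replicate 3 the decreases numbered 3, without control replicate 1 they numbered 4, and without control replicate 2 the increases numbered 6. All 47 passed the filter on low values, and the lowest mean over the 6 libraries was 5.30 RPKM (Sdsl).

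The median log2 change of the 47 was -0.23, with 32 values below 0 and 15 above, while the median of all tested genes was 0.23. Log2 changes are taken from log2(RPKM + 1), positive where dKO liver was higher, and are too small for genes of low RPKM. Every dKO library lay below every control library for 15 of the 47 and above every control for 6, where 6.73% and 38.3% of all tested genes did so. After scaling each library by its median ratio, the median of all genes moved to -0.01 and that of the 47 to -0.52. The share of increases among all calls was then 58.6% in place of 89.1%, with 5.57% of all tested genes lower and 7.86% higher. Of the members, 12 were then lower and 3 higher. The 7 decreases and 3 increases named above were among them. The 5 further decreases were Agxt, Mat1a, Prodh2, Aldh4a1 and Dbt.

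**Figure D1:**
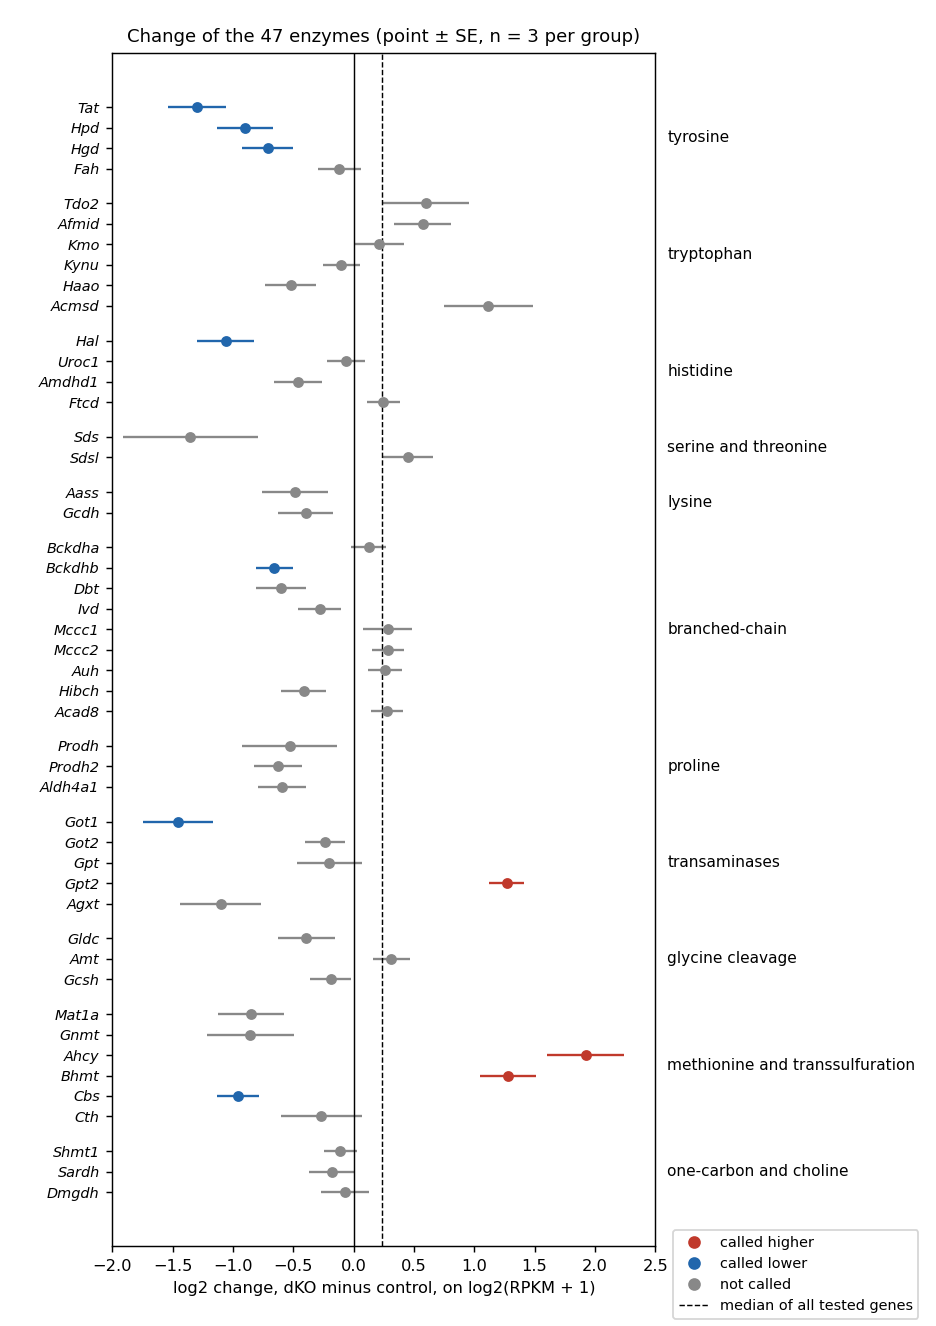
Log2 change of each of the 47 enzymes in log2(RPKM + 1), dKO less control (x axis), as point ± SE with 3 libraries per group, in rows by the amino acid degraded. Blue points were called lower, red higher and grey not called; the dashed line is the median of all tested genes (0.23), and the points run from -1.46 (Got1) to 1.92 (Ahcy).

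Promoter windows of 4 of the called genes are printed here, since Tat, Hgd and Hal were among the genes that fell and Bhmt among those that rose. Each window runs from 250 bases before to 50 bases from the annotated start, 5′ to 3′ on the gene's strand, from RefSeq on build GRCm38.p6, whose table held 40 of the 47 enzymes. Capitals mark the C/EBP letters TTGCNNAA, the glucocorticoid receptor letters ACANNNTGT and the TATA box letters TATAAA, searched on both strands.
Tat promoter, chr8:109990186-109990485 (+ strand): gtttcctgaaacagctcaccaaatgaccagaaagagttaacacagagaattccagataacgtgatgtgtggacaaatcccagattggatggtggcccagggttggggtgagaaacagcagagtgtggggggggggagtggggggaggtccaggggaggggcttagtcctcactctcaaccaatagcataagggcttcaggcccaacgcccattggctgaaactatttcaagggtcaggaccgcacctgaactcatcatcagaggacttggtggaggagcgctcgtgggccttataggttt
Hgd promoter, chr16:37579903-37580202 (+ strand): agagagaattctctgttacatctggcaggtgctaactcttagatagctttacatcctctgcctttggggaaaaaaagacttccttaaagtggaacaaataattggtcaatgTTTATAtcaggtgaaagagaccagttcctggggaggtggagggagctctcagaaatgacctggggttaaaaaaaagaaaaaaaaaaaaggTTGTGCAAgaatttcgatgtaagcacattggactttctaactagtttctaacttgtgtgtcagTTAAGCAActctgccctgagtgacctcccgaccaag
Hal promoter, chr10:93488518-93488817 (+ strand): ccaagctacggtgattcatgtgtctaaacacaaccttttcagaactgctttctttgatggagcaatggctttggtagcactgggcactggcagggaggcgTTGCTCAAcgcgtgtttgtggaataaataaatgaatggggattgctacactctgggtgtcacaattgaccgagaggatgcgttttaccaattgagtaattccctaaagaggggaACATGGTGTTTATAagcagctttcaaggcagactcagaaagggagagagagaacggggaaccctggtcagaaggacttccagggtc
Bhmt promoter, chr13:93637709-93638008 (- strand): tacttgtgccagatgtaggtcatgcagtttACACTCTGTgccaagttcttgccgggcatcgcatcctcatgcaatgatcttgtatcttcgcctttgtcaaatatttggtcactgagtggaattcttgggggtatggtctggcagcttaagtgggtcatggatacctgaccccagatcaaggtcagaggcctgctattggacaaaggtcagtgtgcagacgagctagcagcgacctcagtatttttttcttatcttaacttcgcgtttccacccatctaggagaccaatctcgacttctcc
The C/EBP letters stood at 2 places in the Hgd window and at 1 in the Hal window. The glucocorticoid receptor letters stood once each in the Hal and Bhmt windows, in Hal sharing a base with the TATA letters that follow. The Tat window held none of the 3, which says only that these letters are not in this window. Among the 40 enzymes the C/EBP letters stood in the windows of 5 and the glucocorticoid receptor letters in those of 6, where 10.8% and 6.85% of all 32851 windows in the table held them. The TATA box letters stood in the windows of 5 of the 40 and in 13.62% of all windows. The letters GGAATG, bound by the TEAD partners of YAP, stood in 6 of the 40 and in 14.66% of all windows. Of the 10 called enzymes, 0 held the TEAD letters, 2 the C/EBP letters, 3 the glucocorticoid receptor letters and 2 the TATA box letters. The letters CAAAGTCCA, a form of the HNF4A element, stood in 0 of the 40 and in 0.47% of all windows. An enzyme was counted if any window of its symbol held the letters, while the share over all windows was counted by window. The counts and the shares are therefore not on the same basis. These matches are descriptions of sequence, and no binding was measured.

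Tyrosine is taken apart in 5 steps, 4 of which are in the set, and the enzymes of the early steps fell. Tat, the aminotransferase that opens the pathway, measured 308, 359 and 399.7 RPKM in the controls, in the order of their replicate numbers, against 186, 158 and 101 RPKM in dKO liver. It fell to 41.7% of control, a log2 change of -1.29 ± 0.24 SE with limma adjusted p = 0.0101, and every dKO library was below every control. Hpd, the hydroxyphenylpyruvate dioxygenase of the next step, measured 495, 702 and 505 RPKM in the controls against 341, 344 and 228 RPKM in dKO liver. It fell to 53.7% of control (-0.90 ± 0.23 SE, limma adjusted p = 0.0301), with dKO replicate 3 the lowest of all libraries. Hgd, the homogentisate dioxygenase that follows, measured 130.1, 201 and 144 RPKM in the controls against 110.1, 99.7 and 76.9 RPKM in dKO liver, without overlap. It fell to 60.4% of control (-0.71 ± 0.21 SE, limma adjusted p = 0.0466). Fah, the fumarylacetoacetase of the last step, stood at 114, 166 and 135 RPKM in the controls against 125, 135 and 118 RPKM in dKO liver, so that the groups overlapped (limma adjusted p = 0.645). The calls of Hpd and Hgd were close to the threshold. That of Hpd was lost when replicate 1 or 3 of either group was left out (limma adjusted p up to 0.0678), and that of Hgd when any 1 library was left out (up to 0.13), while Tat kept its call throughout (0.00702 to 0.039 over 14 alternatives).

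Tryptophan enzymes did not pass the test: by limma 0 of 6 rose and 0 fell, with 2 higher and 1 lower at an unadjusted p under 0.05, and the median log2 change was 0.39. At that unadjusted p, 3647 of the 11062 tested genes were higher and 543 lower. Tdo2, the tryptophan dioxygenase that opens the kynurenine pathway and the most abundant of the 6, measured 161, 404 and 205 RPKM in the controls against 428, 432 and 251 RPKM in dKO liver. Control replicate 2 lay among the dKO values, and the log2 change of 0.60 ± 0.36 SE had limma adjusted p = 0.257. Afmid, the kynurenine formamidase, stood at 28.0 ± 8.98 RPKM in the controls against 41.0 ± 7.34 RPKM in dKO liver (limma adjusted p = 0.116). Acmsd, which diverts the pathway away from the synthesis of NAD, measured 2.25, 9.03 and 5.04 RPKM in the controls against 10.8, 13.1 and 11.1 RPKM in dKO liver. Every dKO library exceeded every control, with limma adjusted p = 0.0728. Without control replicate 2 these 3 passed the test, with limma adjusted p of 0.0378 for Tdo2, 0.0373 for Afmid and 0.0102 for Acmsd. Haao, the hydroxyanthranilate dioxygenase, lay on the other side, at 129.6, 189 and 139.5 RPKM in the controls against 124, 111 and 83.3 RPKM in dKO liver, without overlap (limma adjusted p = 0.106). Kmo and Kynu had log2 changes of 0.21 ± 0.20 SE and -0.10 ± 0.15 SE. Afmid shares 67.3% of its exon bases with the overlapping gene model Gm20708 in GENCODE, so its own level is uncertain.

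**Figure D2:**
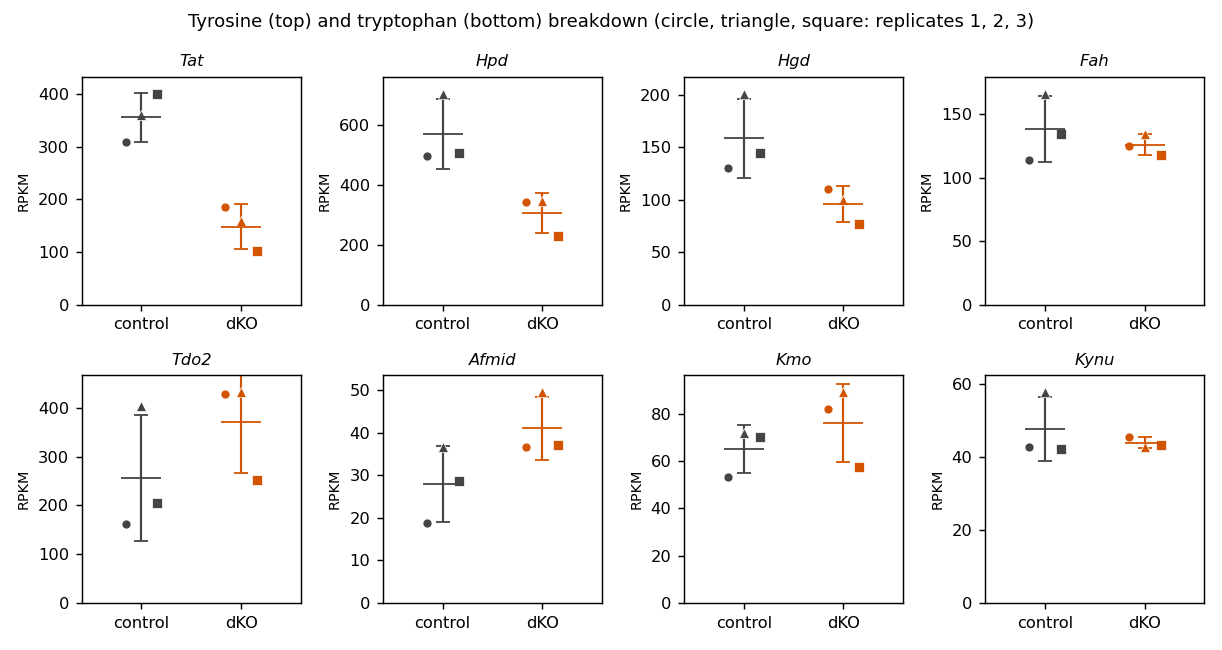
RPKM (y axis, from 0) of 4 tyrosine enzymes (top) and 4 tryptophan enzymes (bottom) in control and dKO liver; circles, triangles and squares are replicates 1, 2 and 3, and bars are the mean ± SD. Tat, Hpd and Hgd lie without overlap below the controls, while Tdo2 overlaps through control replicate 2 (404 RPKM).

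Of the 4 histidine enzymes, the opening one fell. Hal, the histidine ammonia-lyase, measured 87.6, 105 and 98.9 RPKM in the controls, in the order of their replicate numbers, against 54.6, 58.0 and 30.7 RPKM in dKO liver. It fell to 49.1% of control, a log2 change of -1.06 ± 0.24 SE with limma adjusted p = 0.019, and the groups did not overlap. Without control replicate 1 or 3 its adjusted p was 0.0549 and 0.0591. Uroc1, the urocanase of the next step, stood at 109.7, 125 and 123 RPKM in the controls against 125, 120.2 and 97.8 RPKM in dKO liver, and its log2 change was -0.07 ± 0.16 SE. Amdhd1, the imidazolonepropionase, lay lower without overlap (97.0 ± 19.0 RPKM in the controls against 70.2 ± 13.6 RPKM in dKO liver, limma adjusted p = 0.13), and Ftcd, which hands the one-carbon unit to folate, lay higher without overlap (60.02 ± 4.94 RPKM in the controls against 71.4 ± 4.93 RPKM in dKO liver, limma adjusted p = 0.218).

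Serine dehydratase, Sds, which turns serine into pyruvate for glucose synthesis, measured 37.2, 73.3 and 54.0 RPKM in the controls against 34.1, 29.6 and 7.72 RPKM in dKO liver. Every dKO library was below every control and dKO replicate 3 stood apart, so that the log2 change of -1.35 ± 0.56 SE carried a wide error and limma adjusted p = 0.133. Sdsl, a serine dehydratase-like gene, stood at 3.58, 5.07 and 4.19 RPKM in the controls against 7.18, 4.19 and 7.60 RPKM in dKO liver (limma adjusted p = 0.155). Some 28.0% of the Sds exon bases overlap Plbd2 on the opposite strand, and the library protocol marked no strand, so reads of the pair cannot be told apart there. For lysine, Aass, which begins its breakdown, and Gcdh, the glutaryl-CoA dehydrogenase, had log2 changes of -0.49 ± 0.27 SE and -0.40 ± 0.23 SE. Gcdh, the more abundant of the pair, measured 132, 185 and 167 RPKM in the controls against 145, 137 and 88.8 RPKM in dKO liver (limma adjusted p = 0.223), and for both lysine genes the groups overlapped. Of the 4 serine and lysine genes, limma called 0 higher and 0 lower, and at an unadjusted p under 0.05 the counts were 0 and 0.

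Branched-chain amino acids are degraded in mitochondria by a dehydrogenase complex and then by separate routes for leucine, isoleucine and valine. Of the 9 enzymes in the set, 1 fell and 0 rose (2 and 0 at an unadjusted limma p under 0.05). At that unadjusted p, 543 of the 11062 tested genes were lower and 3647 higher. Bckdhb, the beta subunit of the decarboxylase of the complex, measured 47.1, 57.2 and 57.2 RPKM in the controls against 37.5, 35.3 and 28.9 RPKM in dKO liver. It fell to 62.9% of control (-0.66 ± 0.15 SE, limma adjusted p = 0.021) without overlap, and the adjusted p passed above the threshold when replicate 3 of the controls (0.077) or of dKO liver (0.057) was left out. Its partner Bckdha, the alpha subunit, stood at 51.7, 67.6 and 60.2 RPKM in the controls against 63.7, 61.8 and 69.6 RPKM in dKO liver (limma adjusted p = 0.559), with the groups overlapping. Dbt, the transacylase core of the same complex, lay lower without overlap (49.4 ± 14.2 RPKM in the controls against 31.6 ± 4.51 RPKM in dKO liver, limma adjusted p = 0.0722). Whether the 3 subunits differ from each other in their change was not tested. Among the later enzymes, Ivd of leucine and Hibch of valine breakdown had log2 changes of -0.28 ± 0.18 SE and -0.41 ± 0.18 SE. Mccc1, Mccc2 and Auh of leucine and Acad8 of valine breakdown lay between 0.26 and 0.28, close to the median of all tested genes. Mccc2 lay higher without overlap (22.1 ± 2.61 RPKM in the controls against 27.1 ± 1.49 RPKM in dKO liver, limma adjusted p = 0.146). After median-ratio scaling or quantile normalization Dbt was called lower, with limma adjusted p of 0.0345 and 0.0437.

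The 3 proline enzymes all had negative log2 changes, and by limma 0 fell and 0 rose at the adjusted threshold (2 and 0 at an unadjusted p under 0.05). Of the 11062 tested genes, 543 were lower and 3647 higher at the unadjusted p. Prodh2, the hydroxyproline dehydrogenase, measured 53.7, 70.3 and 63.4 RPKM in the controls against 45.9, 46.0 and 30.01 RPKM in dKO liver. Aldh4a1, the dehydrogenase that yields glutamate and the most abundant of the 3, measured 94.7, 148 and 114 RPKM in the controls against 90.6, 69.8 and 72.5 RPKM in dKO liver. Neither gene's groups overlapped. The adjusted p were 0.0532 and 0.0636 by limma, and 0.0407 and 0.0299 after median-ratio scaling. Prodh, the proline dehydrogenase, stood at 18.4, 50.3 and 20.3 RPKM in the controls against 23.5, 19.3 and 13.2 RPKM in dKO liver, and control replicate 2 was apart from all other libraries. GENCODE places Gm21969 over 47.2% of the Aldh4a1 exon bases, so its level is uncertain.

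Beside Tat, described with tyrosine, the set held 5 aminotransferases, of which Got1 fell and Gpt2 rose. Got1, the cytosolic aspartate aminotransferase, measured 58.9, 128 and 89.6 RPKM in the controls, in the order of their replicate numbers, against 41.1, 29.6 and 25.2 RPKM in dKO liver. It fell to 34.7% of control (log2 change of -1.46 ± 0.29 SE, limma adjusted p = 0.0143) with no overlap, and without dKO replicate 3 the adjusted p was 0.0523. Got2, its mitochondrial counterpart, stood at 142, 151 and 131 RPKM in the controls against 129, 133 and 99.98 RPKM in dKO liver (limma adjusted p = 0.326), and the groups overlapped. Within each library the ratio of Got1 to Got2, which does not depend on library scaling, was 0.414, 0.845 and 0.686 in the controls against 0.317, 0.223 and 0.252 in dKO liver, so the ratio was lower in each dKO library. Got2 has a near-identical processed pseudogene, Got2-ps1 (99.1% identity over 1293 bases), with which reads can be shared.

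The forms of alanine aminotransferase also differed in their values. Gpt2, the mitochondrial form, measured 28.0, 30.8 and 33.8 RPKM in the controls, in the order of their replicate numbers, against 75.8, 67.1 and 85.1 RPKM in dKO liver. It rose 2.46-fold (log2 change of 1.27 ± 0.15 SE, limma adjusted p = 0.00166) and was called under all alternatives tried (0.00161 to 0.013 over 14 alternatives). Gpt, the cytosolic form, stood at 72.1, 144 and 93.9 RPKM in the controls against 105, 90.6 and 67.1 RPKM in dKO liver (limma adjusted p = 0.598), and the groups overlapped. The ratio of Gpt to Gpt2 was 2.58, 4.68 and 2.78 in the controls against 1.39, 1.35 and 0.788 in dKO liver. Gpt exceeded Gpt2 in 5 of the 6 libraries, and in dKO replicate 3 Gpt2 exceeded Gpt. Agxt, which detoxifies glyoxylate with alanine as the amino donor, measured 107, 204 and 144 RPKM in the controls against 91.7, 79.9 and 42.0 RPKM in dKO liver. Its means were 151 ± 49.0 RPKM in the controls against 71.2 ± 25.9 RPKM in dKO liver, with no overlap and limma adjusted p = 0.0522, and 0.0443 after median-ratio scaling.

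**Figure D3:**
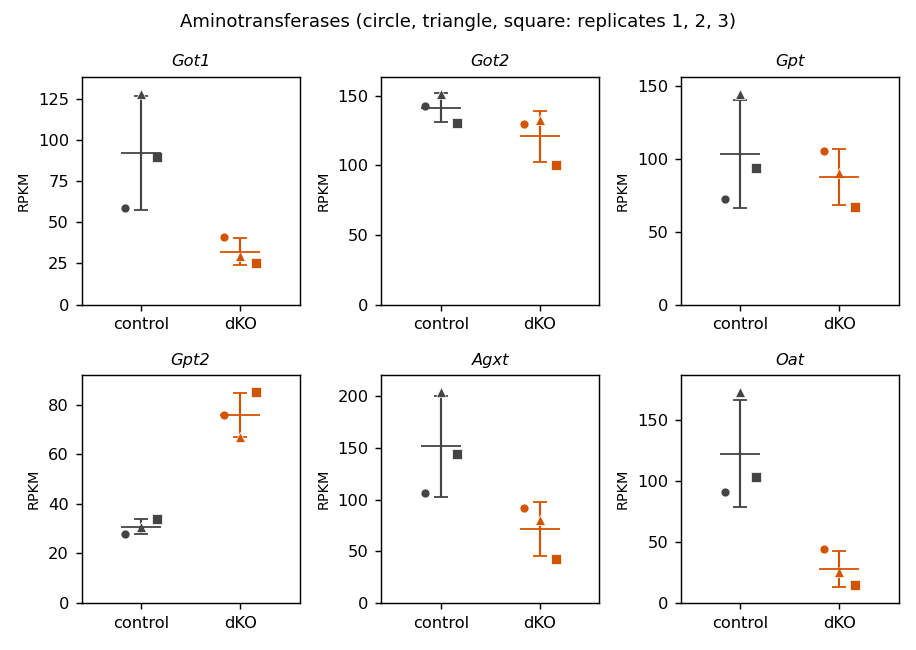
RPKM (y axis, from 0) of 6 aminotransferases in control and dKO liver; circles, triangles and squares are replicates 1, 2 and 3, and bars are the mean ± SD. Got1 and Oat lie below and Gpt2 above the controls without overlap, Got2 and Gpt overlap, and Agxt lies lower without overlap (limma adjusted p 0.0522).

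The glycine cleavage system, a mitochondrial complex that splits glycine and loads its carbon on folate, had 0 of 3 members lower and 0 higher by limma (0 and 0 at an unadjusted p under 0.05). Gldc, the glycine decarboxylase and the most abundant member, measured 37.5, 59.5 and 40.7 RPKM in the controls against 41.3, 38.4 and 24.8 RPKM in dKO liver (limma adjusted p = 0.248). Amt, the aminomethyltransferase, and Gcsh, the carrier protein, had log2 changes of 0.31 ± 0.16 SE and -0.19 ± 0.17 SE. Shmt1, the cytosolic serine hydroxymethyltransferase, stood at 56.7 ± 3.00 RPKM in the controls against 52.6 ± 5.66 RPKM in dKO liver. Sardh and Dmgdh, the mitochondrial dehydrogenases that take methyl groups off sarcosine and dimethylglycine, stood at 128 ± 18.0 RPKM in the controls against 113 ± 20.6 RPKM in dKO liver and at 116 ± 16.1 RPKM in the controls against 111 ± 23.6 RPKM in dKO liver. Sardh, the most abundant of these 3 one-carbon and choline members, measured 108, 133 and 143 RPKM in the controls against 121, 129 and 89.7 RPKM in dKO liver (limma adjusted p = 0.501). The changes of the 3 lay between -0.18 and -0.07, with 0 called by limma and 0 at an unadjusted p under 0.05.

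Of the 6 methionine cycle and transsulfuration enzymes, Bhmt and Ahcy of the cycle rose and Cbs of transsulfuration fell. Bhmt, which remethylates homocysteine with betaine, measured 218, 380.2 and 304 RPKM in the controls, in the order of their replicate numbers, against 689, 808 and 648 RPKM in dKO liver. It rose 2.38-fold (log2 change of 1.28 ± 0.23 SE, limma adjusted p = 0.00942), every dKO library exceeded every control, and the call held under all alternatives tried (0.00258 to 0.0432 over 14 alternatives). The neighbouring gene Bhmt2, a methyltransferase of the same family, stood at 63.0, 103 and 78.4 RPKM in the controls against 82.2, 84.4 and 61.2 RPKM in dKO liver (limma adjusted p = 0.787). The ratio of Bhmt to Bhmt2 was 3.47, 3.70 and 3.87 in the controls against 8.37, 9.58 and 10.6 in dKO liver, so that it separated the groups without overlap. Ahcy, which splits S-adenosylhomocysteine into homocysteine and adenosine, measured 12.1, 20.8 and 15.8 RPKM in the controls against 42.8, 101 and 58.0 RPKM in dKO liver. It rose 4.13-fold (log2 change of 1.92 ± 0.32 SE, limma adjusted p = 0.00874), with the spread among dKO libraries exceeding that among controls and the highest value in dKO replicate 2.

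Both increases were measured on transcripts with near-identical copies. For Ahcy these were Gm4737 (99.7% identity over 2083 bases) and the processed pseudogene Gm9826, and for Bhmt they were Gm5096 (99.4% over 1869 bases) and Bhmt-ps1. None of these copies is listed in the tables under its GENCODE name. How reads that fit several places were counted is not given in the sources used here, so the RPKM of Ahcy and Bhmt are uncertain as levels.

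Cbs, the cystathionine synthase that commits homocysteine to transsulfuration, measured 173, 213 and 179 RPKM in the controls, in the order of their replicate numbers, against 108, 101 and 80.4 RPKM in dKO liver. It fell to 51.3% of control (log2 change of -0.96 ± 0.17 SE, limma adjusted p = 0.0093) without overlap, and the call held under all alternatives tried (0.00851 to 0.0343 over 14 alternatives). Cth, the cystathionine lyase of the next step, stood at 89.0, 208 and 110.4 RPKM in the controls against 129, 120.4 and 74.7 RPKM in dKO liver (limma adjusted p = 0.58), with control replicate 2 far above the other libraries. Mat1a, which makes S-adenosylmethionine in adult liver and was the most abundant of the 47, measured 670.3, 1197 and 780.3 RPKM in the controls against 579, 507 and 362 RPKM in dKO liver. It lay at 54.7% of control without overlap, with limma adjusted p = 0.0572, and 0.0479 after median-ratio scaling. Mat2a, the form of the same enzyme found outside adult hepatocytes and in fetal liver, stood at 22.5, 20.7 and 17.6 RPKM in the controls against 27.0, 26.7 and 28.2 RPKM in dKO liver, higher without overlap (limma adjusted p = 0.0523). The ratio of Mat1a to Mat2a was 29.8, 57.8 and 44.4 in the controls against 21.4, 19.0 and 12.8 in dKO liver, lower in every dKO library than in any control. Gnmt, which uses up surplus S-adenosylmethionine by methylating glycine, measured 534, 897 and 730.1 RPKM in the controls against 537, 499.6 and 219 RPKM in dKO liver. The groups touched, since dKO replicate 1 exceeded control replicate 1, and dKO replicate 3 lay far below (limma adjusted p = 0.122).

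**Figure D4:**
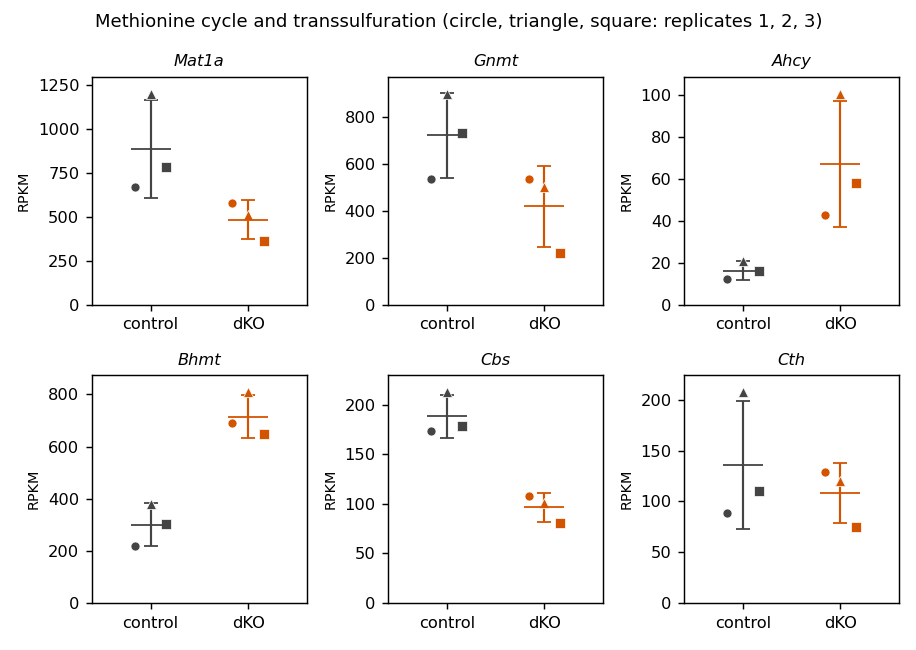
RPKM (y axis, from 0) of the 6 methionine cycle and transsulfuration enzymes in control and dKO liver; circles, triangles and squares are replicates 1, 2 and 3, and bars are the mean ± SD. Ahcy and Bhmt lie above and Cbs and Mat1a below the controls without overlap, with Mat1a at an adjusted p of 0.0572.

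By the compartment in which the enzyme works, 6 of the 24 cytosolic members fell and 2 rose, and 1 of the 22 mitochondrial members fell and 1 rose. The remaining one was Agxt, which mouse liver places in peroxisomes and mitochondria. Over all tested genes 2.17% fell and 17.8% rose. At an unadjusted limma p under 0.05, 543 of the 11062 tested genes were lower and 3647 higher. At that unadjusted p, 10 cytosolic members were lower and 4 higher, against 4 and 1 of the mitochondrial members. The medians of the log2 changes were -0.24 and -0.21, and the largest changes in size of either sign, Ahcy and Got1, were cytosolic. Whether the compartments differ was not tested.

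Libraries of the same group also differed across the set. Control replicate 2 was the highest of the 3 controls for 42 of the 47 enzymes, as it was for 48.4% of all tested genes. Control replicate 1 was the lowest for 42 of the 47 and for 45.1% of all tested genes. Among the dKO libraries, replicate 3 was the lowest for 37 of the 47 and for 19.9% of all tested genes. The 47 enzymes summed to 4877, 7591 and 5823 RPKM in the controls against 5422, 5355 and 3811 RPKM in dKO liver, so that the groups overlapped. Estimated depth was 17.0, 24.8 and 20.6 M reads in the controls against 21.4, 21.0 and 24.6 M reads in dKO liver, in replicate order, and the cholangiocyte markers were highest in dKO replicate 3. Their part in these differences was not tested. Without control replicate 2 and dKO replicate 3 together, a choice made after seeing the data, 6 members were lower and 6 higher. Of the decreases named above only Hgd lost its call then, Ahcy missed the threshold with a limma adjusted p of 0.0508, and Tdo2, Afmid, Acmsd and Amt passed it as increases.

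**Figure D5:**
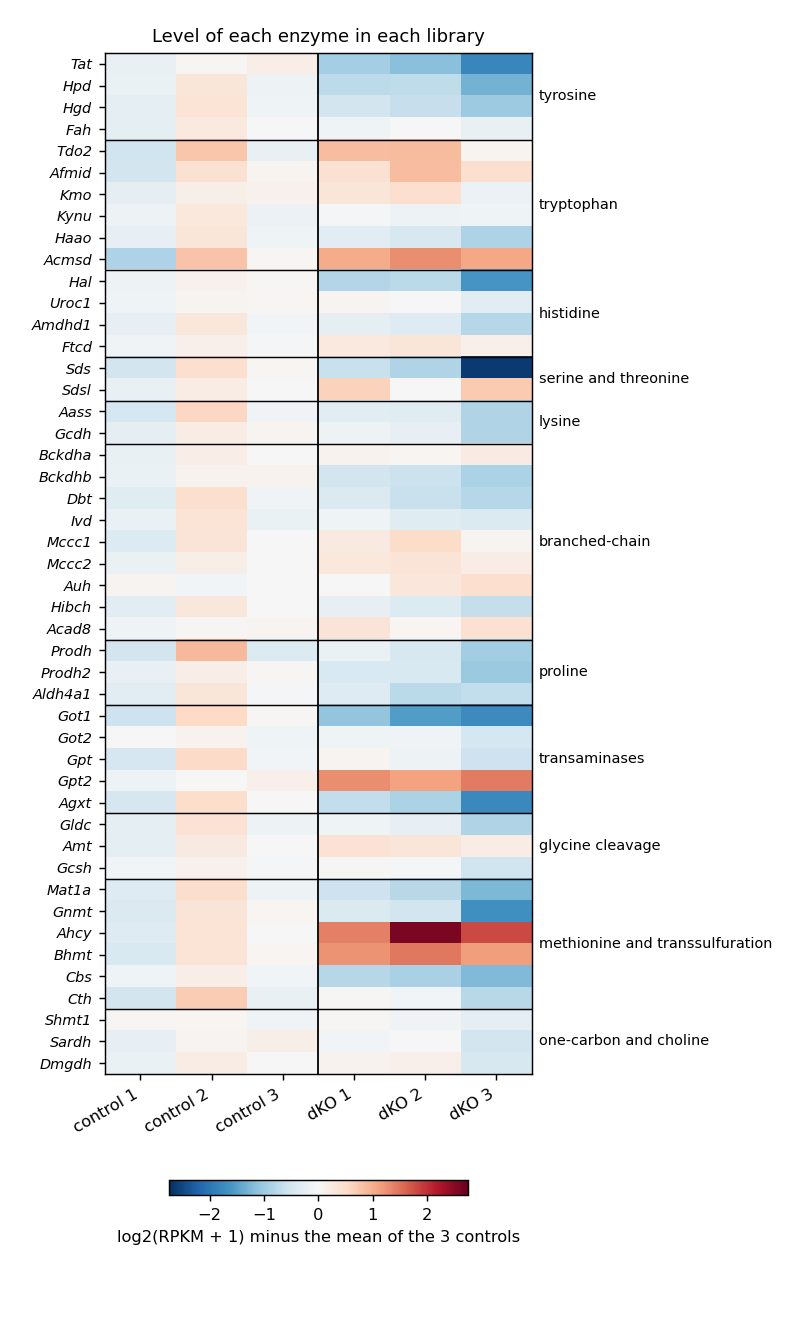
Level of each of the 47 enzymes (rows) in each of the 6 libraries (columns), as log2(RPKM + 1) minus the mean of the 3 controls; red is above and blue below that mean. The control replicate 2 column is mostly red (highest control for 42 enzymes) and the dKO replicate 3 column mostly blue (lowest dKO library for 37).

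Other enzymes of these pathways were read from a list of 61 symbols in the tables, of which 55 were tested, 4 rose and 3 fell. Their median log2 change was -0.01, and over all tested genes 17.8% rose and 2.17% fell. Oat, the ornithine aminotransferase that links ornithine to proline and glutamate, measured 90.8, 172 and 103 RPKM in the controls against 43.7, 24.9 and 14.9 RPKM in dKO liver. It fell to 22.8% of control (log2 change of -2.16 ± 0.40 SE, limma adjusted p = 0.0131), the lowest share of control among the members and neighbours named. Csad, the cysteine sulfinate decarboxylase of taurine synthesis, measured 9.45, 10.6 and 23.7 RPKM in the controls against 59.6, 59.8 and 67.6 RPKM in dKO liver. It rose 4.27-fold (log2 change of 2.13 ± 0.30 SE, limma adjusted p = 0.00546), and without control replicate 2 and dKO replicate 3 the adjusted p was 0.0603. Cdo1, the cysteine dioxygenase of the step before, stood at 414, 654 and 437 RPKM in the controls against 346, 398 and 274 RPKM in dKO liver, lower without overlap (limma adjusted p = 0.124). Chdh, the choline dehydrogenase that feeds betaine to Bhmt, rose from 35.6 ± 3.68 to 54.2 ± 2.14 RPKM (limma adjusted p = 0.0182), but not after median-ratio scaling (0.165) or quantile normalization (0.0516) and not without control replicate 1 or dKO replicate 1.

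Of the other called neighbours, Hibadh of valine breakdown fell from 109 ± 13.5 to 67.8 ± 11.1 RPKM (limma adjusted p = 0.029). Ccbl2, a kynurenine aminotransferase, fell from 82.8 ± 10.7 to 48.4 ± 13.4 RPKM (limma adjusted p = 0.0365). Each lost its call when any 1 of 5 libraries was left out, the exception being dKO replicate 1, at a limma adjusted p no higher than 0.0737 for Hibadh and 0.0882 for Ccbl2. Asrgl1, an asparaginase, rose from 2.55 ± 0.124 to 4.94 ± 0.805 RPKM (limma adjusted p = 0.0121), but its adjusted p was 0.0628 after median-ratio scaling and 0.148 after quantile normalization, where the log2 change was 0.40 in place of 0.73. Mtr, the folate-dependent methionine synthase that remethylates homocysteine beside Bhmt, rose from 1.04 ± 0.140 to 2.00 ± 0.374 RPKM (limma adjusted p = 0.0469), a call that 10 of 14 alternatives ended, with limma adjusted p of up to 0.343.

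Of 12 regulators known to act on these genes, 1 rose and 0 fell by limma, where 17.8% of all tested genes rose and 2.17% fell. At an unadjusted limma p under 0.05 the counts were 2 and 0, against 3647 and 543 of the 11062 tested genes. Cebpb, a C/EBP transcription factor of the hepatocyte's hormone and acute phase responses, measured 1.88, 2.96 and 2.67 RPKM in the controls against 4.44, 5.27 and 7.66 RPKM in dKO liver. It rose 2.31-fold (limma adjusted p = 0.017), and its adjusted p was 0.0627 without control replicate 1. The other regulator higher at the unadjusted p was Cebpa. It stood at 34.8 ± 4.32 RPKM in the controls against 47.2 ± 8.12 RPKM in dKO liver, without overlap (limma adjusted p = 0.0954). Hnf4a, a transcription factor of hepatocyte identity, stood at 147, 122 and 129 RPKM in the controls against 115, 118 and 108 RPKM in dKO liver, lower without overlap (limma adjusted p = 0.295). Nr3c1, which encodes the glucocorticoid receptor, stood at 23.0 ± 1.41 RPKM in the controls against 20.9 ± 0.527 RPKM in dKO liver, and Gcgr, the glucagon receptor gene, at 40.4 ± 3.07 RPKM in the controls against 41.8 ± 7.37 RPKM in dKO liver. Neither passed the test, with limma adjusted p of 0.431 and 0.886.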

How the data were processed

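The authors deposited 6 tables, 1 per library, with 1 value per gene symbol, read here as RPKM. Their genome build was mm9, according to the submitters' processing notes, and the aligner, counter and annotation are not given in the sources used here. The unit is inferred from the values: among 3026 symbols with a single GENCODE M21 transcript, 79.2% to 82.2% of low values lay within 0.15 of a whole read at the depth that fitted best, which was chosen to fit these same values. The depths are therefore estimates.

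Values were taken as log2(RPKM + 1), the 11062 of 22068 symbols averaging 1 RPKM or more were fitted with limma 3.58.1 in R 4.3.3 (trend, robust, group as the only term), and p-values were adjusted over all of them. The fit was tested on simulated data. The 47 enzymes were grouped by amino acid, and they, the neighbour, regulator and marker lists and the naming rule were chosen with earlier results of these data known. Named with full values were called members, the most abundant member of a group with fewer than 2 calls, called neighbours and regulators, Hnf4a, Stk3, Stk4 and Alb; other members and neighbours are named by value where their groups did not overlap or they pair with a called gene, chosen after their values were seen. Near-identical copies were sought with BLAST+ 2.17.0 in GENCODE M21 transcripts (at least 95% identity over 200 bases). A neighbour and a gene of an added list are not reported here. Figures used matplotlib 3.10.9. Alternatives are listed with their effect in the closing section. The same replicate numbers in both groups did not pair the libraries (correlations of deviations from the group means of -0.10 to -0.01).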

Additional observations from a re-analysis of the deposited data

How the results depend on the processing

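Of the 10 called enzymes, 4 (Tat, Gpt2, Bhmt and Cbs) kept their call in all 14 alternatives, and 6 lost it in at least 1 of them, while 0 changed direction. Of all 47, 14 changed direction in at least 1 alternative, and these were called in none. With 1 library left out, 3 to 6 members were called lower (3 without control replicate 3 or dKO replicate 3, 4 without control replicate 1) and 3 to 6 higher (6 without control replicate 2). Over all genes there were 90 to 241 lower and 763 to 1992 higher calls, the lowest both without control replicate 1. Median-ratio scaling gave 12 members lower, with 866 higher and 613 lower calls over all genes. Quantile normalization gave 727 and 554, with 3 members higher and 6 lower. Without a filter on low values 145 genes were lower, among them 5 members, as more genes were tested (16907). Without control replicate 2 and dKO replicate 3, chosen after seeing the data, 6 members were higher, and over all genes 1781 were higher and 264 lower. With a replicate block 4 members were higher and 7 lower, against 3 and 7 without it: Hgd lost its call (limma adjusted p = 0.0624), while Agxt (0.045) and Acmsd (0.0277) gained one. The block is reported only here because the replicate numbers did not pair the libraries. A pseudocount of 0.1, a floor of 1 RPKM in any 3 libraries and no robust moderation gave 7, 7 and 8 members lower and 3 higher each. With 3 libraries per group, the spread of each gene limits what passes: Sds missed the threshold at a log2 change of -1.35 with an SE of 0.56, and Bckdhb passed it at -0.66 with an SE of 0.15.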

Other observations

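Amino acid transporters were looked at in a list of 25 genes added after the enzyme results had been seen. Of 20 tested, 7 fell and 1 rose, with a median log2 change of -0.20, where 2.17% of all tested genes fell and 17.8% rose. Slc38a3, the most abundant of them and a glutamine transporter, measured 359.9, 350.3 and 407 RPKM in the controls against 243, 224 and 177 RPKM in dKO liver, a fall without overlap (limma adjusted p = 0.0196, and 0.0621 and 0.0782 without control replicate 1 and 3). Slc1a2, a glutamate transporter known from hepatocytes around the central vein, measured 15.5, 6.499 and 18.1 RPKM in the controls against 3.71, 1.34 and 0.741 RPKM in dKO liver (limma adjusted p = 0.0209), and its call was lost when control replicate 1 or 3, or dKO replicate 2 or 3, was left out. Slc16a10, a carrier of aromatic amino acids, measured 17.2, 21.0 and 12.3 RPKM in the controls against 8.03, 8.35 and 7.80 RPKM in dKO liver (limma adjusted p = 0.0105), and Slc3a1, a subunit of the cystine transporter, 9.56, 13.4 and 10.3 RPKM in the controls against 4.09, 3.75 and 1.77 RPKM in dKO liver (limma adjusted p = 0.00582). These 2, Slc43a1 and Slc43a2 kept their calls in all 14 alternatives. Slc43a1 and Slc43a2, carriers of branched-chain and aromatic amino acids, went apart. Slc43a1 measured 3.30, 4.28 and 3.44 RPKM in the controls against 1.41, 0.790 and 0.392 RPKM in dKO liver (limma adjusted p = 0.00595) and Slc43a2 measured 2.17, 2.64 and 2.92 RPKM in the controls against 5.82, 5.50 and 10.3 RPKM in dKO liver (limma adjusted p = 0.0109), neither with overlap. Slc7a2, a carrier of cationic amino acids, and Slc38a2, a carrier of neutral ones, fell from 47.7 ± 15.8 to 23.3 ± 3.67 RPKM (limma adjusted p = 0.0218) and from 43.3 ± 6.32 to 27.8 ± 0.624 RPKM (limma adjusted p = 0.0193). The call of Slc7a2 was lost without dKO replicate 3 and that of Slc38a2 when replicate 1 or 3 of either group was left out.

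Further genes were read from lists added at the same point. Hnmt, a methyltransferase that uses S-adenosylmethionine to inactivate histamine, rose from 7.14 ± 0.284 to 11.7 ± 2.26 RPKM (limma adjusted p = 0.0228, and 0.19 after median-ratio scaling). Its call was lost in 6 of 14 alternatives, which were median-ratio scaling, quantile normalization and leaving out control replicate 1 or 3, or dKO replicate 1 or 2 (limma adjusted p up to 0.198). Gamt, the last enzyme of creatine synthesis, stood at 91.9 ± 9.70 RPKM in the controls against 73.1 ± 14.8 RPKM in dKO liver (limma adjusted p = 0.199). Of 7 polyamine enzymes and 4 enzymes of creatine and carnitine synthesis, limma called 0 and 0 in either direction (1 and 0 at an unadjusted p under 0.05). Of the 11062 tested genes, 3647 were higher and 543 lower at the unadjusted p. Odc1, the ornithine decarboxylase, stood at 1.56, 3.94 and 1.99 RPKM in the controls against 4.04, 4.59 and 6.08 RPKM in dKO liver (limma adjusted p = 0.0548).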
